A study of Mus musculus with 6 samples.

Results

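The matrix metalloproteinases (MMPs) are zinc-dependent proteases that cut collagens and other matrix proteins outside the cell. The set described here was chosen by name and comprised Mmp2, Mmp3, Mmp8, Mmp9, Mmp11, Mmp12, Mmp13, Mmp14, Mmp19 and Mmp23, 10 of the 14798 genes in the deposited table, and all 10 passed the filter on low counts. The tissue was left-ventricular infarct scar of mice. Infarcts were made by tying off the LAD coronary artery when mice were 10 weeks old, scars were collected 6 weeks later, and the labels give ages of 14 to 16 weeks. The 3 control libraries were labelled Sox9 fl/fl, with no Cre, and the 3 deletion libraries Sox9 fl/perCre, in which a Cre called Per-Cre deletes Sox9 in fibroblasts according to the series text. Every mouse therefore carried floxed Sox9 and an infarct, and no uninjured heart and no Cre-only group was part of the series. The sources used here do not name the promoter of the Cre beyond its label and do not say how many animals stand behind a library, so p-values measure the spread between these libraries, which may be technical.

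Most MMPs are secreted as inactive zymogens, kept inactive by a cysteine of the propeptide that holds the catalytic zinc, and are activated by plasmin, by other MMPs or, for furin-type members, inside the cell. In the infarcted heart they take part in the clearance of the dead tissue, in the entry of leukocytes and in the remodelling of the collagen scar, and tissue inhibitors of metalloproteinases (TIMPs) bind and block the active enzymes. Transcript levels, which are what was measured here, do not give the amount of active enzyme.

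Libraries held 18538171 to 55523974 counts. All counts of replicates 2 and 3 were even numbers in controls and deletion libraries alike, unlike those of replicate 1, so results are also given for the replicate 1 pair and for replicates 2 and 3 alone. The labels name no batch, and the word is used below for this division of the libraries. Sox9 was at 71.1, 75.8 and 67.7 CPM (counts per 1000000 of a library, scaled by TMM factors) in controls 1 to 3 and at 42.1, 51.7 and 55.8 CPM in deletion libraries 1 to 3. Xist, the RNA of the inactive X chromosome, was at 812 CPM in control 3 and at most 7.61 CPM elsewhere. The summed level of 6 cardiomyocyte markers was 28913 to 50223 CPM in controls and 46655 to 96990 CPM in deletion libraries, and that of 7 fibroblast markers 7615 to 9046 CPM in controls and 3722 to 7861 CPM in deletion libraries. Deletion replicate 1 had both the highest cardiomyocyte and the lowest fibroblast sum.

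The gene positions follow the deposited table in build mm10. On chromosome 9, 6 MMP genes of the table, 4 of them in the set, lay in a cluster between positions 7272514 and 7581885. Their order was Mmp13, Mmp12, Mmp3, Mmp10, Mmp8 and Mmp27. RefSeq starts of Mmp1b, between Mmp12 and Mmp3, and of Mmp1a, between Mmp3 and Mmp10, lay in the same stretch, and neither gene is in the table. Mmp2 lay on chromosome 8 from 92827297 to 92853421, Mmp14 on chromosome 14 from 54431598 to 54442456, Mmp9 on chromosome 2 from 164948219 to 164955850 and Mmp23 on chromosome 4 from 155650655 to 155653384. Mmp11 and Mmp19 lay on chromosome 10, from 75923222 to 75932502 and from 128790910 to 128800827. Exons of Mmp11 overlapped those of Chchd10 on the opposite strand by 155 bases, exons of Mmp19 overlapped Tmem198b by 789 and Gm47093 by 212 bases, and exons of Mmp12 overlapped Mmp1b by 157 bases (GENCODE vM21). Whether counting used the strand is not stated in the labels or headers. If it did not, reads in these stretches cannot be told apart from those of the opposite gene. The remaining 7 members shared no exonic base with another annotated gene.

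RefSeq promoter windows were at hand for 7 of the 10 members and not for Mmp2, Mmp9 and Mmp19. In each of the 7, 1 window began at the start of the deposited transcript. Printed here are the last 100 bases before that start for Mmp3 and Mmp10 of the chromosome 9 cluster, which shared a pattern across libraries. Printed too are those for Mmp12 and Mmp13 of the same cluster and for Mmp14 from outside it. They run 5′ to 3′ on the coding strand, in lower case, with matches to the AP-1 motif TGANTCA and to the TATA motif TATAAA in capitals. The windows are chr9:7445722-7445821, chr9:7502242-7502341, chr9:7347274-7347373, chr9:7272414-7272513 and chr14:54431498-54431597, all on the plus strand of GRCm38.p6, which has the coordinates of mm10.
Mmp3: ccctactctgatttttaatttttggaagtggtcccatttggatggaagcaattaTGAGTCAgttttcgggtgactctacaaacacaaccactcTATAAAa
Mmp10: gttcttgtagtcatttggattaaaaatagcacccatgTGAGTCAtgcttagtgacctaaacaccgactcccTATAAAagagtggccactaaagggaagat
Mmp12: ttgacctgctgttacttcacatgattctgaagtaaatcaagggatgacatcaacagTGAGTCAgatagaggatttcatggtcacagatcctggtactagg
Mmp13: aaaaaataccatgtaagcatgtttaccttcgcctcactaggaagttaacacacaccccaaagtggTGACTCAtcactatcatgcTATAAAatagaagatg
Mmp14: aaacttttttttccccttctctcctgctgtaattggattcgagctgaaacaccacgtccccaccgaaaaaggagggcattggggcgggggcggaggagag
AP-1 is the FOS and JUN factor through which interleukin-1 and phorbol esters are known to induce several MMP genes. The 250 bases before the start were searched on both strands. The AP-1 motif was present in 3 of the 7 members with a window, Mmp3, Mmp12 and Mmp13. Of the other MMP genes, 6 had a window at the start of the deposited transcript, and 1 of them, Mmp10, held it. Among other MMP genes absent from the deposited table, RefSeq windows of Mmp1a, Mmp1b, Mmp7 and Mmp20 also held the AP-1 motif, and that of Mmp21 did not. In Mmp3 it lay 46 to 40 bases before the start and in Mmp10 63 to 57 bases before it. Of all 32851 mouse RefSeq windows cut to the same length, 6.75% held the AP-1 motif and 12.4% the TATA motif, which was found in Mmp3 and Mmp13 among members. The motif ACAAT, the core of many SOX binding sites, was present in Mmp3, Mmp12 and Mmp23, 3 of the 7, against 27.7% of all windows. These matches describe the letters of the windows and not occupied sites.

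Set in order of level per length, the family was led by a fibroblast-type gelatinase and its membrane-bound activator. In controls, mean CPM per kilobase of transcript was 184 ± 7.15 for Mmp2, 75.3 ± 16.9 for Mmp14, 49.1 ± 31.7 for Mmp3, 42.3 ± 10.1 for Mmp23 and 11.4 ± 2.96 for Mmp19 (SD, n = 3). It was 5.66 ± 6.15 for Mmp12, 5.51 ± 0.598 for Mmp11, 1.69 ± 0.536 for Mmp9, 0.392 ± 0.291 for Mmp13 and 0.322 ± 0.0214 for Mmp8. Neighbours that differed by less than the larger of their SDs were Mmp14 and Mmp3, Mmp3 and Mmp23, Mmp19 and Mmp12, Mmp12 and Mmp11, and Mmp13 and Mmp8. Mmp2 and Mmp14 together made up 61.7% to 81.6% of the summed per-length level of the 10 genes in each library. In deletion libraries the order was the same except that Mmp11, at 4.64 ± 1.43 CPM per kilobase, stood above Mmp12 at 2.52 ± 1.47 CPM per kilobase.

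**Figure D1:**
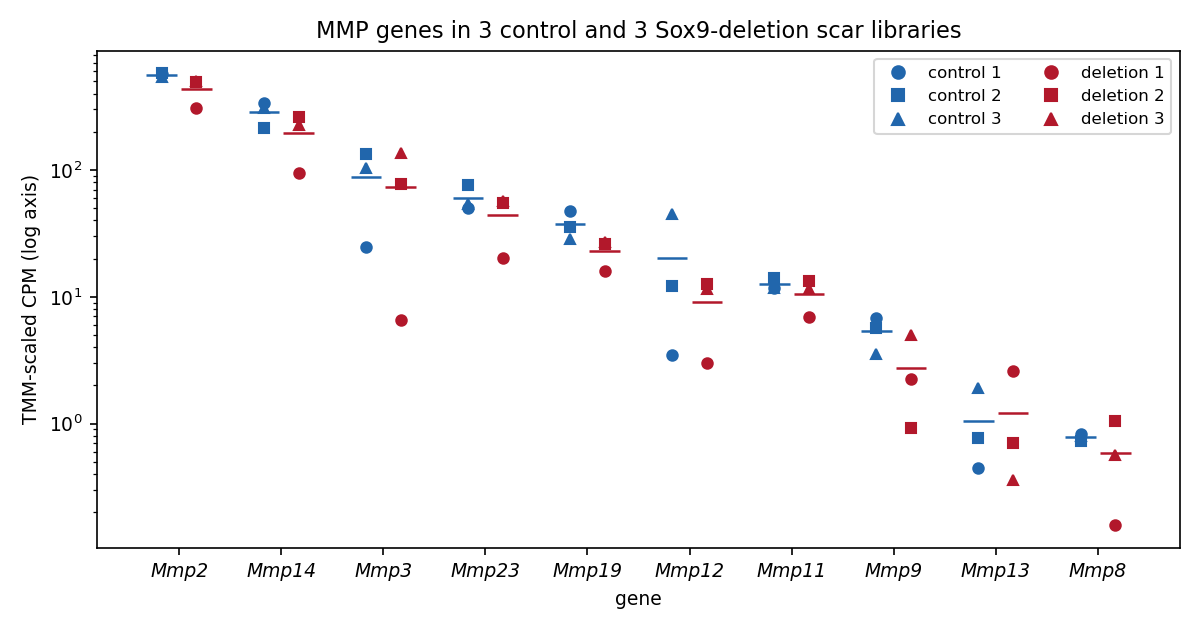
TMM-scaled CPM (log axis) of the 10 MMP genes, ordered by mean level, with 1 point per library (circles replicate 1, squares replicate 2, triangles replicate 3) and a bar at the mean of each group (controls blue, Sox9 deletion red). Deletion replicate 1 is the lowest library for 8 of the 10 genes, and controls and deletion libraries are apart only in Mmp2 and Mmp19.

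Across the set, 9 of 10 genes had a negative log2 fold change (deletion minus control), against 52.4% of all genes tested, and none passed the test. The edgeR quasi-likelihood test called 0 of 14771 genes at an adjusted p below 0.05 (0% of the background), with 1232 genes (8.34%) at an unadjusted p below 0.05. The median log2 fold change of the 10 genes was -0.40, beside -0.017 over all genes. Of the 10, 1 gene had an unadjusted p below 0.05. In bulk tissue, fewer cells of a type and less RNA per cell cannot be told apart. Controls and deletion libraries did not overlap, with controls higher, in 2 of 10 members, against 8.6% of all genes, and in no member with the deletion libraries higher, against 8.87%. The 2 members were Mmp2 and Mmp19.

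Deletion replicate 1 carried much of the difference. It was the lowest library for 8 of 10 members, whereas 33.8% of all genes were lowest there. In the replicate 1 pair the median log2 difference of the members was -1.44 and 9 of 10 were lower in the deletion library, whereas replicates 2 and 3 gave a median of -0.20, also with 9 of 10 below 0. Without deletion replicate 1 the median was -0.20, and without deletion replicate 3 it was -0.67. A model with a batch term gave -0.61 with all 10 below 0, beside 52% of all genes. That fit called 1 of 14771 genes (0.00677%) and DESeq2 without the term called 52 (0.352%), and neither called a member. The part of the cardiomyocyte and fibroblast marker sums of that library in these values was not tested.

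**Figure D2:**
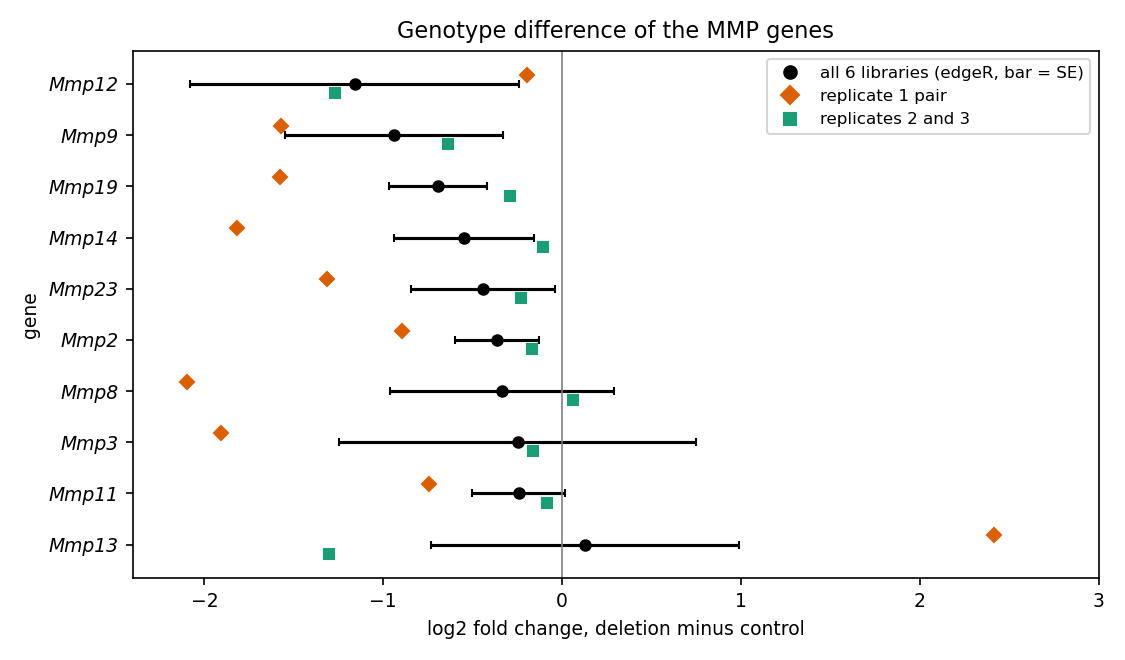
Log2 fold change, deletion minus control, of the 10 MMP genes: black circles with SE bars from edgeR over all 6 libraries, orange diamonds the replicate 1 pair, green squares the edgeR fit of replicates 2 and 3. The replicate 1 pair lies further from 0 than replicates 2 and 3 for every gene except Mmp12, and Mmp8 and Mmp13 have opposite signs in the 2 sets.

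Mmp2 encodes gelatinase A, which degrades denatured collagen and basement membrane collagen and is a typical product of fibroblasts. Its level was 570 CPM, 577 CPM and 536 CPM in controls 1 to 3 and 307 CPM, 494 CPM and 506 CPM in deletion libraries 1 to 3. Every deletion library was below every control, with deletion replicate 1 far below the other 2. Controls differed little among themselves, with a coefficient of variation of 3.89% against 25.6% in deletion libraries. The log2 fold change was -0.36 ± 0.23 (SE; edgeR adjusted p = 0.597), -0.89 between the replicate 1 libraries and -0.17 ± 0.10 over replicates 2 and 3 (edgeR adjusted p = 0.501).

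Mmp9, gelatinase B, is known mainly as a product of neutrophils and macrophages. It was at 6.85 CPM, 5.70 CPM and 3.51 CPM in controls and 2.27 CPM, 0.918 CPM and 5.03 CPM in deletion libraries. The groups overlapped, since deletion replicate 3 exceeded control replicate 3, and the lowest value was in deletion replicate 2. The log2 fold change was -0.94 ± 0.61 (edgeR adjusted p = 0.597). Between libraries of the same number, which were not taken to be pairs, the log2 difference was -1.57, -2.57 and 0.51. Of 8 neutrophil markers, 4 were measured (S100a8, S100a9, Csf3r and Cxcr2), with a summed level of 7.64 to 15.8 CPM in controls and 5.12 to 13.3 CPM in deletion libraries. Of these 4, 3 had a positive log2 fold change, and the median was 0.28, or 1.67 over replicates 2 and 3. All 4 were lower in deletion replicate 1 than in control replicate 1. The part of these markers in the level of Mmp9 was not tested.

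The collagenases Mmp8 and Mmp13, which cut native fibrillar collagen, were the least abundant members. Mmp8, the neutrophil collagenase, was at 0.835 CPM, 0.731 CPM and 0.795 CPM in controls and 0.158 CPM, 1.05 CPM and 0.563 CPM in deletion libraries. The groups overlapped, and the lowest value rested on 3 reads, a ratio to control replicate 1 of 0.190 with an exact counting interval of 0.0352 to 0.671 (95%, counting error only). The log2 fold change was -0.34 ± 0.63 (edgeR adjusted p = 0.839), and without deletion replicate 1 it was 0.027. Mmp13, the main collagenase of mouse cartilage and bone, was at 0.445 CPM, 0.768 CPM and 1.92 CPM in controls and 2.59 CPM, 0.699 CPM and 0.362 CPM in deletion libraries. The highest library was deletion replicate 1, with 49 reads, so this gene ran against the rest of the set in that library. The ratio to control replicate 1, with 8 reads, was 5.81 (exact counting interval 2.73 to 14.2). Over all libraries the log2 fold change was 0.13 ± 0.86 (edgeR adjusted p = 0.963). It was 2.42 between the replicate 1 libraries and -1.30 ± 0.64 over replicates 2 and 3 (edgeR adjusted p = 0.391). Of 6 chondrocyte markers 3 were measured, with a summed level of 4.67 to 36.8 CPM in controls and 3.43 to 7.61 CPM in deletion libraries. All 3 had a negative log2 fold change (median -0.24), and 2 of the 3 were lower in deletion replicate 1 than in control replicate 1. Controls and deletion libraries did not overlap, with controls higher, in 1 of the 3, against 8.6% of all genes. It was Col2a1, at 1.39 CPM, 5.74 CPM and 29.3 CPM in controls and 0 CPM, 0.699 CPM and 0.845 CPM in deletion libraries. Of 6 osteoblast markers only Alpl was measured, at 32.6 to 52.0 CPM in controls and 37.1 to 66.0 CPM in deletion libraries. The part of these markers in the level of Mmp13 was not tested.

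Mmp3, stromelysin 1, cleaves proteoglycans, fibronectin and laminin and activates other pro-MMPs, and fibroblasts are a known source. It was at 24.9 CPM, 134.6 CPM and 104 CPM in controls and 6.60 CPM, 78.0 CPM and 137 CPM in deletion libraries. Both replicate 1 libraries were lowest, and the widest range of the 10 genes was seen here, 20.8-fold between deletion replicates 3 and 1. The mean log2 level of the replicate 1 libraries was 3.10 below that of the other 4, an 8.60-fold difference, and 0.183% of all genes tested had a larger shift in that direction. The groups overlapped, and the genotype difference was -0.25 ± 0.998 on the log2 scale (edgeR adjusted p = 0.936). Its sign turned to 0.28 without deletion replicate 1 and to 0.20 without control replicate 2. With the batch term the SE was 0.41 and the log2 fold change -0.66 (edgeR adjusted p = 0.390).

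Mmp10, stromelysin 2, of the same cluster was the third most similar of 13288 genes to Mmp3 in its profile over the 6 libraries. Likeness was measured as the root mean square difference of log2 CPM centred per gene. It was 0.34 for Mmp10, 0.30 for Gipr, the receptor of the incretin GIP, and 0.33 for Stbd1, a glycogen-binding protein. Mmp10 was at 0.946 CPM, 5.08 CPM and 3.54 CPM in controls and 0.422 CPM, 2.97 CPM and 5.59 CPM in deletion libraries. It stood 6.15-fold lower in the replicate 1 libraries than in the other 4. Of the 50-base words of Mmp3 transcripts in GENCODE vM21, 7.99% also occur in those of another MMP gene, and of those of Mmp10, 8.37% do. The number was 140 for both, but the words were compared with all other MMP genes together. Some reads could thus have been assigned to another MMP gene. No other member shared such a word with another MMP gene when transcripts were compared on their own strands. That comparison leaves out the overlap of Mmp12 with Mmp1b on the opposite strand.

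**Figure D3:**
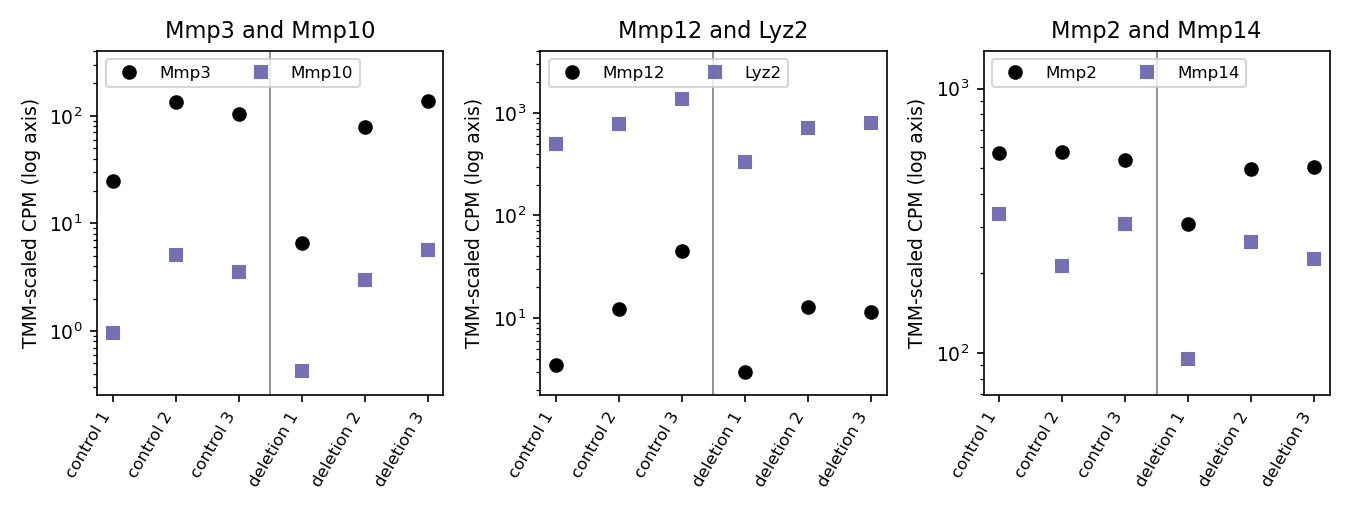
TMM-scaled CPM (log axis) per library for 3 pairs of genes, with controls left and deletion libraries right of the grey line. Mmp3 and Mmp10 are both lowest in the 2 replicate 1 libraries, Mmp12 and the macrophage marker Lyz2 are both highest in control replicate 3, and Mmp2 and Mmp14 are both lowest in deletion replicate 1.

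Mmp12, the macrophage elastase, degrades elastin. It was at 3.45 CPM, 12.2 CPM and 45.3 CPM in controls and 3.01 CPM, 12.7 CPM and 11.4 CPM in deletion libraries. Control replicate 3 stood alone, and the remaining 5 libraries lay between 3.01 and 12.7 CPM with the groups mixed. The log2 fold change of -1.16 ± 0.92 (edgeR adjusted p = 0.656) was 0.20 without that library. Control replicate 3 was also the highest library for 6 of 7 macrophage markers, whose summed level was 2152 CPM there, against 967 and 1402 CPM in the other controls and 627 to 1263 CPM in deletion libraries. It was the library with the high Xist level as well. The part of either in the Mmp12 level was not tested. Like Mmp3, Mmp12 was lower in the replicate 1 libraries, by 5.17-fold, and 0.582% of genes had a larger shift in that direction.

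Mmp14, a transmembrane collagenase that activates pro-MMP2 at the cell surface, was at 335 CPM, 213 CPM and 308 CPM in controls and 94.8 CPM, 263 CPM and 227 CPM in deletion libraries. Control replicate 2 lay below both deletion replicates 2 and 3. The log2 fold change was -0.55 ± 0.39 (edgeR adjusted p = 0.626), -1.82 between the replicate 1 libraries and -0.10 ± 0.21 over replicates 2 and 3 (edgeR adjusted p = 0.839). The genes closest to it in profile were Tyro3, a receptor tyrosine kinase (0.13), Prokr1, a prokineticin receptor (0.13), and the ganglioside synthase B4galnt1 (0.14). Those closest to Mmp2 were Magee1 (0.026), Zc2hc1a (0.038) and Tmem237 (0.045).

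Mmp23, a short family member anchored in the membrane by its amino terminus and lacking the haemopexin domain, was at 49.97 CPM, 76.6 CPM and 54.0 CPM in controls and 20.1 CPM, 55.3 CPM and 57.3 CPM in deletion libraries. Apart from deletion replicate 1 the groups were intermixed, and the log2 fold change of -0.44 ± 0.40 (edgeR adjusted p = 0.689) was -0.11 without that library. Mmp11, stromelysin 3, is activated by furin inside the cell and is typical of stromal fibroblasts. It was at 11.7 CPM, 14.1 CPM and 11.8 CPM in controls and 6.97 CPM, 13.3 CPM and 11.4 CPM in deletion libraries, a log2 fold change of -0.24 ± 0.26 (edgeR adjusted p = 0.730). Again the values outside deletion replicate 1 lay close together.

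Mmp19, an MMP of many tissues that cleaves basement membrane components, had the smallest p-value of the set. It was at 47.6 CPM, 35.6 CPM and 28.5 CPM in controls and 15.9 CPM, 26.1 CPM and 26.8 CPM in deletion libraries. The groups did not overlap, but control replicate 3 and deletion replicate 3 were close. The log2 fold change was -0.69 ± 0.27 (edgeR adjusted p = 0.564, 0.0405 unadjusted). Of all genes, 3.04% had an unadjusted p below 0.05 and a lower level in deletion libraries. It was -1.58 between the replicate 1 libraries and -0.29 ± 0.14 over replicates 2 and 3 (edgeR adjusted p = 0.391), and over the alternatives tried the adjusted p ran from 0.220 to 0.908.

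Of 13 other MMP genes, 8 were in the deposited table, 5 with a negative and 3 with a positive log2 fold change, a median of -0.15, and 0 called. Mmp15, a membrane-type MMP, was at 28.2 CPM, 26.1 CPM and 28.5 CPM in controls and 106 CPM, 40.4 CPM and 31.4 CPM in deletion libraries. Each deletion library exceeded every control, with deletion replicate 1 far above the others, and the log2 fold change was 1.10 ± 0.45 (edgeR adjusted p = 0.564), or 0.37 without that library. Mmp25, known as leukolysin from leukocytes, had its highest level, 12.2 CPM, in control replicate 3, and 0.211 to 2.09 CPM in the other 5 libraries (log2 fold change -1.99, edgeR adjusted p = 0.570). Mmp24, which shares 637 exonic bases with BC029722 on the opposite strand, had a log2 fold change of 0.40 and Mmp27 of 0.12, and Mmp16, Mmp17, Mmp28 and Mmp10 lay between -0.39 and -0.09. Without deletion replicate 1 the values were 0.051 for Mmp24, 0.35 for Mmp27, -0.049 for Mmp16 and -0.16 for Mmp17. Mmp28 was at -0.065 and Mmp10 at 0.38 there, and the median of the 8 genes was 0.00085. Mmp24 was highest in both replicate 1 libraries, with 24.9 CPM in the control and 29.8 CPM in the deletion library. Elsewhere it had 10.5 to 16.4 CPM, so leaving out deletion replicate 1 alone kept the high control. Over replicates 2 and 3 its log2 fold change was 0.52, beside 0.44 with the batch term. The median of the 8 genes was -0.10 over replicates 2 and 3 and -0.24 with the batch term.

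Among the 5 measured inhibitors, 4 had a negative log2 fold change, with a median of -0.73, and 0 were called. Timp2, which binds MMP14 and thereby recruits pro-MMP2 for activation, was at 551 CPM, 857 CPM and 822 CPM in controls and 293 CPM, 514 CPM and 643 CPM in deletion libraries (log2 fold change -0.62 ± 0.34, edgeR adjusted p = 0.565). The per-length ratio of Mmp2 to Timp2 was 1.22, 0.796 and 0.771 in controls and 1.24, 1.14 and 0.931 in deletion libraries, and the groups overlapped (two-sided exact permutation p = 0.3, adjusted over 3 ratios 0.75). The ratio of Mmp14 to Timp2 was 0.392 ± 0.174 against 0.378 ± 0.0971 (exact permutation p = 1.0), and that of Mmp2 to Mmp14 was 2.54 ± 0.709 against 3.03 ± 0.875 (exact permutation p = 0.5; SD, n = 3 each). With 3 libraries against 3, the smallest p this test can give is 0.1. Timp1, the inducible inhibitor, had 258 CPM in control replicate 1, 57.7 to 65.7 CPM in replicates 2 and 3 of both groups and 23.1 CPM in deletion replicate 1. Timp3, which is bound to the matrix and shares 1733 exonic bases with Syn3 on the opposite strand, had a log2 fold change of -0.73. Reck, a membrane-anchored inhibitor, was at -0.92 and Timp4, the inhibitor typical of cardiac muscle, with 90 exonic bases in common with Syn2 on the opposite strand, at 1.65 ± 0.65 (edgeR adjusted p = 0.564). Timp4 was at 21.9 CPM in deletion replicate 1 and at 2.30 to 5.88 CPM elsewhere, and without that library its log2 fold change was 0.64. Leaving out the same library gave -0.37 for Timp2, -0.45 for Timp3, -0.62 for Reck, -0.997 for Timp1 and a median of -0.45 for the 5 inhibitors. Over replicates 2 and 3 alone the values were -0.55 for Timp2, -0.52 for Timp3 and -0.96 for Reck. Timp1 was at 0.072 and Timp4 at 0.96 there, and the median was -0.52.

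Of 10 measured genes of MMP activation and clearance, 8 had a negative log2 fold change (median -0.50) and 0 were called. Among the most abundant were Lrp1, an endocytic receptor that clears MMPs, with a log2 fold change of -0.48, the MMP inducer basigin (Bsg) with 0.40, and Thbs2, thrombospondin 2, with -0.53. Without deletion replicate 1 these values were -0.20 for Lrp1, -0.096 for Bsg, with the sign turned, and -0.14 for Thbs2. The median of the list was -0.29 there. Over replicates 2 and 3 the values were -0.35 for Lrp1, 0.17 for Bsg and -0.35 for Thbs2, with a median of -0.36. Of 14 transcription factors and cytokines that induce MMP genes, 9 were below 0, the median was -0.14 and 0 were called. Over replicates 2 and 3, 13 of the 14 were below 0, with a median of -0.22. In the replicate 1 pair 6 of the 14 were lower in the deletion library. Without deletion replicate 1 the median was -0.12. Jun was at 259 CPM in deletion replicate 1 and at 92.6 to 112 CPM elsewhere, and the ETS factors Ets2 and Ets1 were at 188 and 136 CPM there and at 75.1 to 96.8 and 66.8 to 79.1 CPM elsewhere. Nfkb1, an NF-kappaB subunit, was at 63.2 CPM there and at 66.7 to 94.0 CPM elsewhere. The other AP-1 genes of the list, singled out after their values were seen, did not share 1 pattern. Fos was at 144 CPM in that library and at 6.64 to 14.6 CPM elsewhere, and Junb at 90.3 CPM and at 26.3 to 33.5 CPM elsewhere. Fosl1, at 5.17 CPM there and 2.36 to 6.46 CPM elsewhere, and Fosl2, at 63.5 CPM there and 51.0 to 96.7 CPM elsewhere, lay within the range of the other libraries.

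All 10 measured MMP substrates had a negative log2 fold change, with a median of -0.56 and 0 called, and the values were -0.51 for Col3a1, -0.59 for Col1a2, -0.51 for Col1a1 and -0.35 for Col4a1. Without deletion replicate 1 they were -0.20, -0.25, -0.14 and -0.36 in the same order, and the median of the 10 was -0.41. Over replicates 2 and 3 alone they were -0.28, -0.32, -0.27 and -0.13 in that order, with a median of -0.36. All 4 genes of collagen uptake and intracellular breakdown were also below 0. The collagen receptor Mrc2 was at -0.53 and the cathepsins Ctsl, Ctsb and Ctsk at -0.42, -0.16 and -0.90, with 0 called. Without deletion replicate 1 they were -0.25 for Mrc2, -0.46 for Ctsl, -0.11 for Ctsb and -2.396 for Ctsk. Ctsk was highest in both replicate 1 libraries, with 26.9 CPM in the control and 13.4 CPM in the deletion library. Elsewhere it had 1.92 to 2.71 CPM, so leaving out deletion replicate 1 alone kept the high control. Over replicates 2 and 3 the values were -0.17 for Mrc2, -0.51 for Ctsl, -0.17 for Ctsb and -0.46 for Ctsk. With the batch term Ctsk was at -0.64.

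The authors' deposited table also holds values called TMM, and those of the MMP genes differed from the counts by a factor that depended on gene and replicate. For Mmp3 the authors' deposited table gave 3402, 2274 and 1779 in controls 1 to 3 and 901.1, 1301 and 2286 in deletion libraries 1 to 3. Control replicate 1 was thus the highest control there and the lowest in CPM. Divided by CPM, the deposited values of Mmp3 gave factors of 136.8 and 136.6 in the 2 replicate 1 libraries and 16.7 to 17.1 in the other 4. For Mmp12 the factors were 103.5 and 103.1 against 20.5 to 21.0, and for Mmp19 41.4 and 41.3 against 38.8 to 39.9. The median factor over genes was 39.8 to 40.9 in the 6 libraries, so each library had about the same overall scale.

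**Figure D4:**
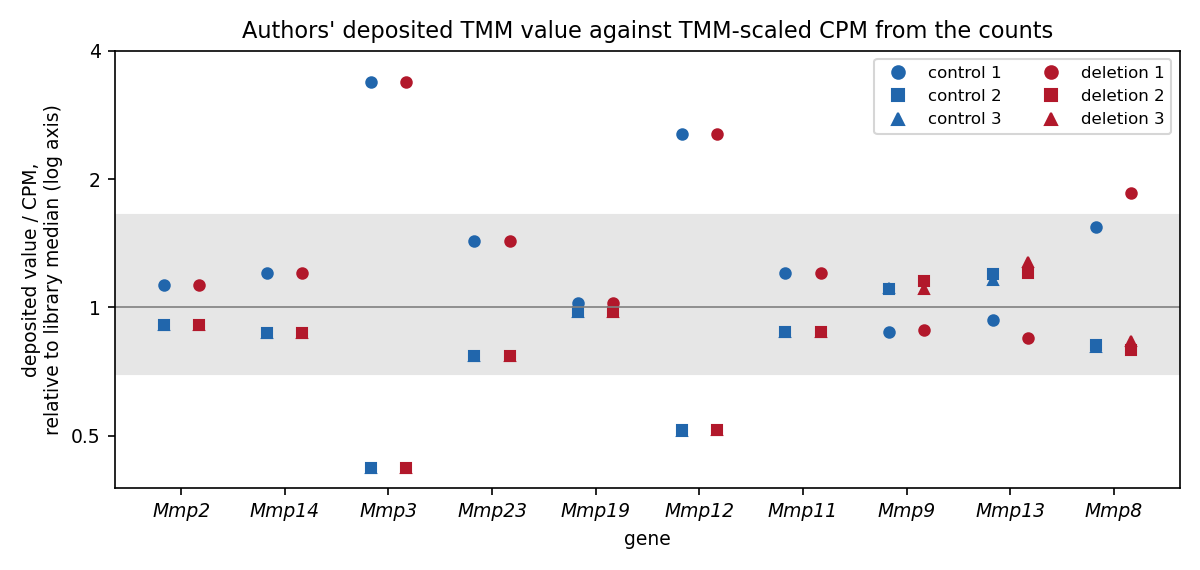
Ratio of the authors' deposited TMM value to CPM for the 10 MMP genes, divided by the median ratio of the library over all genes (log axis), with 1 point per library. The grey band runs from the lowest 5th to the highest 95th percentile over the 6 libraries, and the replicate 1 circles of Mmp3 and Mmp12 lie above it, at 3.38 and 2.56 in control 1, with the other 4 libraries below it. Mmp8 in deletion replicate 1 also lies above the band.

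In the authors' deposited table all 10 members had a negative log2 fold change, from -0.96 for Mmp12 to -0.045 for Mmp13, with Mmp3 at -0.73 where the counts gave -0.25. The authors' deposited NOISeqBIO probability was above 0.95 for 9 of the 10, all but Mmp13 at 0.109. It was above 0.95 for 79% of all 14798 genes, and for 44% together with a lower level in deletion libraries. In those deposited values too, controls and deletion libraries were without overlap, controls higher, in 2 of the 10, Mmp2 and Mmp19, beside 18.8% of all genes.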

How the data were processed

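Scar RNA from 3 control and 3 Sox9-deletion libraries was purified with RNeasy columns and 100 ng went into ScriptSeq v2 libraries, per the labels' protocols. The authors deposited raw read counts per gene, 1 RefSeq transcript and its length per gene, signal values named TMM with their group means, a log2 fold change of those means and a NOISeqBIO probability, a score from 0 to 1, per the file headers. Per the submitters' processing notes, build mm10 and the tools Trim Galore, STAR and deepTools were used, with no role or version stated. The counting tool is not given in the sources used here. No listed gene had a mean count under 7.

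Counts were tested in R 4.3.3 with edgeR 4.0.16 (TMM factors, filterByExpr, robust quasi-likelihood F test, genotype as the only term, 4 residual degrees of freedom, prior count of 2), with Benjamini-Hochberg adjustment over 14771 genes and a threshold of 0.05. The script was tested on simulated data. CPM are TMM-scaled; ± is the SD of 3 libraries for levels and the SE for log2 fold changes. Alternatives were a replicate block, a batch term, replicates 2 and 3 alone, each library left out, halved counts, other scalings, no Rn45s, no filter and DESeq2 1.42.0. Named genes are the members, Sox9, the other MMP genes and inhibitors, at most 4 genes of each further list by mean CPM, and the 3 genes closest in profile to the 3 most abundant members among genes with a mean of at least 1 CPM. Marker genes, Xist and other AP-1 genes are named beside these, and 1 gene that the rule names is not reported here. Members, lists and alternatives were chosen with earlier results of these data known.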

Additional observations from a re-analysis of the deposited data

How the results depend on the processing

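Over 15 alternatives, 138 of 150 member values kept the sign and the side of the threshold, 12 changed sign, and none passed (adjusted p 0.220 to 0.998). The number of members below 0 ran from 8 to 10, and the median log2 fold change from -0.67 to -0.20, and over fits with 1 library left out also from -0.67 to -0.20. Genes called over the whole table went from 0 to 1 with the batch term and 52 with DESeq2, and stayed at 0 in each fit with 1 library left out. Mmp13 was at -0.091 with the replicate block, -0.24 with the batch term, -1.30 in replicates 2 and 3 and -0.12 with total counts only, and Mmp8 was at 0.058 in replicates 2 and 3. With 1 library left out, Mmp13 ran from -0.98 to 0.85, Mmp3 from -1.05 to 0.28, Mmp12 from -1.65 to 0.20 and Mmp8 from -0.96 to 0.027. The cause was not tested. The labels give replicate numbers 1 to 3 in both groups. Deviations of same-numbered libraries correlated at 0.48, 0.013 and 0.18 over 14771 genes, and control 2 and 3 correlated more with deletion 3 and 2 (0.31 and 0.39), so the numbers were not taken to pair the libraries. With the replicate block 0 genes and 0 members were called, the median of the members was -0.60 and all 10 were below 0. Depth limits Mmp8 and Mmp13 most, with counts of 3 to 48 and 8 to 116 per library. The sources used here do not say whether the even counts of replicates 2 and 3 hold each fragment more than once.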
